A study of Mus musculus with 2 samples.

Results

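The CD28 family of costimulators and checkpoints and the receptors read with it were examined by Gata3 ChIP-seq in TH2 cells expanded *in vitro*. The members are 10 of the 21938 protein-coding genes of the GENCODE M21 annotation: *Cd28*, *Ctla4*, *Icos*, *Pdcd1*, *Btla*, *Lag3*, *Havcr2*, *Tigit*, *Cd96* and *Cd226*. They were chosen by name, and the locus of each was its gene body with 20 kb either side. The data are 2 libraries of mouse splenic TH2 cells, replicates 1 and 2 of the same condition, immunoprecipitated with an anti-Gata3 antibody (D13C9) and tagmented on the beads (ChIPmentation). Neither an input nor an IgG library was used here, a second condition is lacking, and the genotype, strain, age and treatment of the mice used for these libraries are not given in the labels. Nothing in the sources used here says that the libraries came from separate cultures, so a comparison between them may measure technical spread. The extraction protocol names ILC2, whereas the other labels name TH2 cells. The depth was 40526613 and 24970952 reads, with 40504814 and 24959052 of these on the assembled chromosomes (1 to 19, X and Y).

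T cell activation needs a signal from the antigen receptor and a second signal from surface receptors such as CD28, and it is restrained by inhibitory receptors, the checkpoints. CD28 and CTLA-4 share the ligands CD80 and CD86, with CD28 activating and CTLA-4 inhibiting, while ICOS is a costimulator of activated T cells that binds ICOS ligand. PD-1 (*Pdcd1*), BTLA, LAG-3, TIM-3 (*Havcr2*) and TIGIT inhibit T cells, and CD226 is an activating receptor that shares nectin-type ligands with TIGIT and CD96. Gata3 is the zinc finger transcription factor that directs TH2 cell differentiation and type-2 cytokine expression, and it recognises the letters AGATAA or AGATAG and also TGATAA or TGATAG.

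Reads were counted in 200-bp windows and scaled to library size (RPM) by the reads on the assembled chromosomes. A peak is a run of windows over the local read density in a library (exact Poisson test, one-sided, at a q of 0.01 after Benjamini-Hochberg adjustment). It is called shared where peaks of both libraries overlap, and it has its summit at the window with the most reads. The height of a shared peak was ranked by the lower of its RPM in the 2 libraries among all 23806 shared peaks, and this rank is given as a percentile. The reads come from a bulk of cells, so binding in many cells and stronger binding in a few cells cannot be told apart.

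The 10 loci held 26 shared peaks, in 6 members: 8 at *Cd226*, 5 each at *Btla* and *Lag3*, 4 at *Pdcd1* and 2 each at *Havcr2* and *Tigit*. The share of protein-coding genes with a locus length within 20% that had at least as many was 2.22% for *Cd226* and 1.77% for *Btla*. It was 0.437% for *Lag3*, whose count includes peaks in *Cd4*, 2.08% for *Pdcd1*, 29.1% for *Havcr2* and 20.8% for *Tigit*. *Cd96* had 0 shared peaks, and *Cd28*, *Ctla4* and *Icos* could not be read with these files, as described next. A shared peak in the locus was found for 54.8% of all protein-coding genes, so 6 of 10 members is a share near the background. Within the gene body 6 of 10 members held a shared peak, against 29.4% of all protein-coding genes. Within 2 kb of the gene start 3 of 10 members did (*Btla*, *Lag3* and *Havcr2*), against 11.7% of all protein-coding genes. Library 1 alone had 47 peaks in the loci and library 2 alone had 28, and library 1 alone had a peak near the start of 6 members, against 28.0% of all protein-coding genes in that library.

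Across *Cd28*, *Ctla4* and *Icos*, on chromosome 1, the files hold almost no reads. The *Cd28* locus (gene at chr1:60716800-60773359, plus strand) held 23 and 6 reads in libraries 1 and 2. The *Ctla4* locus (gene at chr1:60887000-60915832, plus strand) held 35 and 18 reads, and the *Icos* locus (gene at chr1:60977927-61000320, plus strand) held 8 and 6 reads. By contrast the lowest of the other 7 loci by reads, *Tigit*, held 1369 and 877 reads. The 3 genes are the only protein-coding genes inside a span of 428 kb, chr1:60688800-61116799, in which 83.1% of all 50-base stretches have an exact second copy in a NOD/ShiLtJ patch sequence of GRCm38.p6. The authors removed reads without a unique position, and the deposited files name patch sequences among their alignment targets, with 1 read on this patch in library 1 and 0 in library 2.

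In the span 80 reads started in library 1 and 40 in library 2, where the library means would give 6361 and 3919. Of these, 0 of 80 and 0 of 40 started at a stretch with a copy in the patch. The read density was 0.962% and 0.779% of that in the sequence on either side. The 13.8% of stretches with no exact copy anywhere in GRCm38.p6 held 76 and 40 reads, against 876 and 540 at the library means, and 87.2% of these stretches lay in runs of at most 100 starts. In the longer runs 36 and 16 reads were found, where the library means would give 112 and 68.9, so reads were also low there, and the cause of this was not tested. The 40 kb just before the span held 694 and 402 reads, 1.17-fold and 1.10-fold of the mean, although 87.7% of its stretches have a copy in the alternate strain sequences of the assembly and 1.16% in the patch. No 200-bp window of the 3 loci was free of copies (0 of 482 for *Cd28*, 0 of 344 for *Ctla4* and 0 of 311 for *Icos*). With so few reads, the 0 peaks of *Cd28*, *Ctla4* and *Icos* are not read as a lack of Gata3, and their densities below are those of the deposited reads only.

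**Figure D1:**
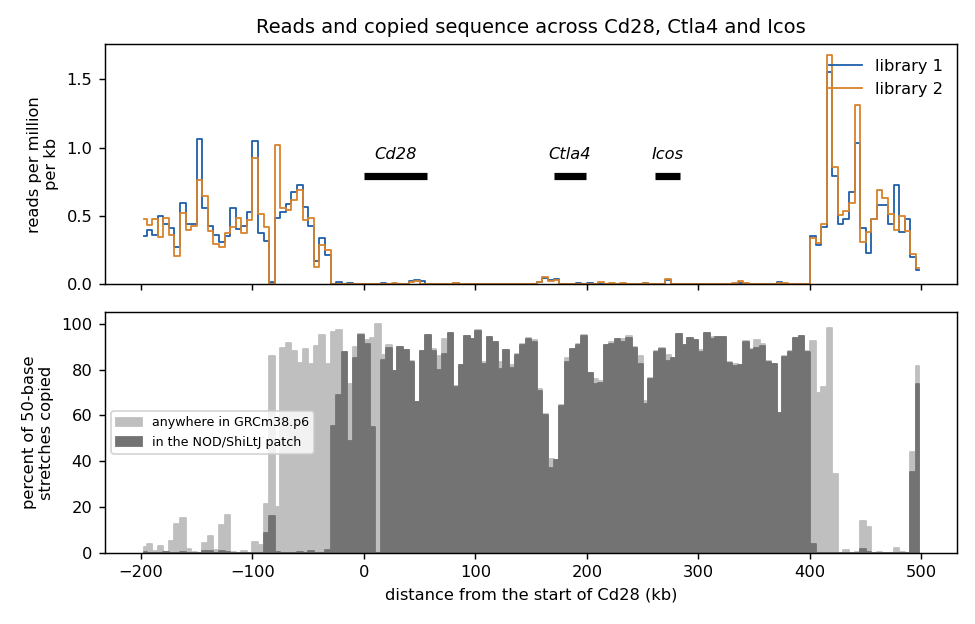
Gata3 ChIP read density in 5-kb bins (upper, RPM per kb, a line for each library) and the percent of 50-base stretches with an exact second copy (lower, dark for the NOD/ShiLtJ patch and light for anywhere in GRCm38.p6) against distance from the start of Cd28 in kb. Bars mark the gene bodies. Both libraries fall to near 0 over the 428-kb span and rise again on either side of it. Outside the span the bin at -82.5 kb is also near 0 (0.0148 and 0 RPM per kb, 16.1% copied in the patch and 85.7% anywhere). The bins at -42.5 kb (0.168 and 0.128) and 497.5 kb (0.104 and 0.120) are also low. Inside the span the bin at 12.5 kb has 0 RPM per kb with 0% copied in the patch and 99.9% anywhere.

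Of all protein-coding genes 1387 (6.32%) had a locus below 10% of the mean read density in at least one library. Among the 20551 others, 58.5% had a shared peak in the locus, 31.3% in the gene body and 12.5% within 2 kb of the gene start. The corresponding counts for the 7 members that could be read are 6, 6 and 3.

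Ordered by read density over the whole locus, *Lag3* came first, with 1.83 RPM per kb in library 1 (95% exact Poisson interval 1.77 to 1.89) and 2.09 RPM per kb in library 2 (2.01 to 2.17). Of its reads 53.7% and 59.7% lay where the locus reaches into a block of reads over *Cd4*. Without that stretch *Lag3* had 0.928 and 0.923 RPM per kb. *Btla* followed with 1.05 and 1.18 RPM per kb, *Cd226* with 0.962 and 0.981, and *Pdcd1* with 0.815 and 0.970. *Havcr2* had 0.669 and 0.619 RPM per kb, *Tigit* 0.611 and 0.636, and *Cd96* 0.493 and 0.477. All 7 lay above the library mean, by 4.98-fold and 5.69-fold at *Lag3* down to 1.34-fold and 1.30-fold at *Cd96*. In the order, *Cd226* and *Pdcd1* were not separate, nor were *Havcr2* and *Tigit* or *Cd28* and *Icos*, since the lower library of the one did not exceed the higher library of the other. Over all protein-coding genes the density of the *Btla* locus stood at the 99.3 and 99.6 percentile, that of *Havcr2* at the 87.2 and 82.9, and that of *Cd96* at the 48.3 and 46.4. With the shared peaks left out, the mean density of *Btla* was 0.688 RPM per kb instead of 1.12, below *Cd226* (0.714) and close to *Pdcd1* (0.686), and *Havcr2* (0.532) came after *Tigit* (0.578). In windows free of copies alone the order of the 7 was that given above, from 2.11 RPM per kb at *Lag3* to 0.549 at *Cd96*. There *Havcr2* (0.851 and 0.797) was separate from *Tigit* (0.639 and 0.661), while *Cd226* and *Pdcd1* were still not separate. Such windows made up 72.8% of the *Havcr2* locus and 90.6% of the *Tigit* locus. The intervals cover counting error only.

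**Figure D2:**
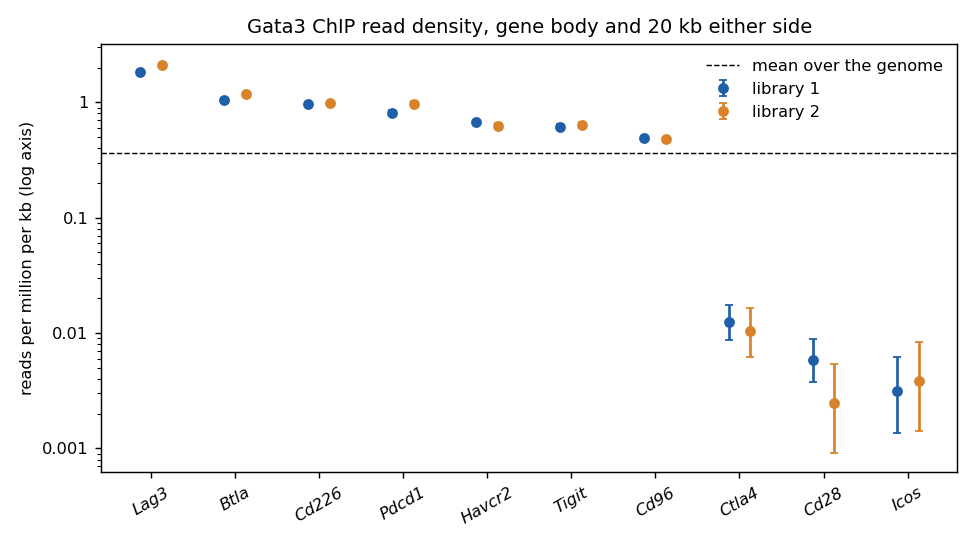
Read density over each locus (RPM per kb, log axis) for the 10 members in order of their mean, with a point for each library and 95% exact Poisson intervals. The dashed line is the mean over the genome. The loci from Lag3 (1.83 and 2.09, with the reads of Cd4 that its locus includes) to Cd96 (0.493 and 0.477) lie above the line in both libraries. Ctla4, Cd28 and Icos lie far below it.

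Among the checkpoints, *Btla*, the inhibitory receptor for HVEM, had the tallest peaks apart from those in the *Lag3* locus that lie in *Cd4*. The gene lies at chr16:45224315-45257670 on the plus strand and has 6 exons in its principal transcript. Its tallest peak, 565 bp upstream of the gene start, held 167 and 90 reads in libraries 1 and 2, or 4.12 and 3.61 RPM (4.85-fold and 4.21-fold over the local density, one-sided exact Poisson p = 4.52e-59 and p = 2.14e-28), at the 98.4 percentile. A second tall peak lay 4080 bp past the end of the gene, with 120 and 63 reads (2.96 and 2.52 RPM, 7.30-fold and 7.33-fold, 94.5 percentile). Another, inside the gene body but past the end of the principal transcript, held 93 and 53 reads (91.6 percentile). The summits of the first and second of these were at the same position in both libraries.

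The sequences under the peaks upstream and downstream of *Btla* are shown because these are the tallest peaks of a checkpoint locus outside *Cd4*, and each has 2 GATA matches. All sequences here are the plus strand of GRCm38, from 100 bp before to 100 bp after the summit of library 1, with GATA matches on either strand in capitals, and distances to the summit run along the plus strand.
Btla upstream peak, chr16:45223650-45223850: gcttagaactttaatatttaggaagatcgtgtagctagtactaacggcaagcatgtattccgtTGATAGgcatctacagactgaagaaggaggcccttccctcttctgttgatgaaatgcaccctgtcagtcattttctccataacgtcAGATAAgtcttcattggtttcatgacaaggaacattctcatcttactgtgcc
Btla downstream peak, chr16:45261650-45261850: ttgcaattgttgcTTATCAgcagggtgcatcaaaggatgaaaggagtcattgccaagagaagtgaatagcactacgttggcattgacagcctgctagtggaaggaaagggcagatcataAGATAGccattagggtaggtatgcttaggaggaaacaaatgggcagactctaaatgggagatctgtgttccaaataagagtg
In the upstream peak the nearest match began 37 bp before the summit, and in the downstream peak it began 19 bp after it.

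The remaining *Btla* peaks ranked lower. In intron 1 a peak held 26 and 19 reads (33.1 percentile) with 0 GATA matches. A peak 5765 bp upstream of the gene start held 41 reads in library 1, and in library 2 it held 55 at a summit 200 bp away (1.01 and 2.20 RPM, 65.8 percentile). Its library 1 summit lies beside a tandem run of the letters AGATAG, shown because 11 of its 12 GATA matches overlap within that repeat.
Btla repeat peak, chr16:45218450-45218650: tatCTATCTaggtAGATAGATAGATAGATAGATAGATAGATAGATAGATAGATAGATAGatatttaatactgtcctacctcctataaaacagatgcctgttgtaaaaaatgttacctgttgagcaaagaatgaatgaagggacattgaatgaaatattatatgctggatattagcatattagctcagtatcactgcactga
In the 200-bp window of library 1 this peak held 41 and 38 reads, a difference that was not significant (two-sided exact binomial test, adjusted p = 0.387). That window was set by the library 1 summit, so the test cannot decide whether the libraries differ over the whole peak. Library 2 was the higher at -5.815 kb from the gene start (0.790 and 1.28 RPM) and at -5.615 kb (0.963 and 2.04 RPM). The difference at the library 2 summit was not tested.

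*Pdcd1*, which encodes PD-1, the receptor for PD-L1 and PD-L2, lies at chr1:94038305-94052553 on the minus strand, with 5 exons. Its tallest shared peak lay in intron 1, 5103 bp from the gene start, with 103 and 52 reads in libraries 1 and 2 (2.54 and 2.08 RPM, 4.47-fold and 3.82-fold over the local density, one-sided exact Poisson p = 2.77e-34 and p = 1.81e-15), at the 91.2 percentile. A peak 2855 bp past the end of the gene held 65 and 34 reads (79.2 percentile), with its summit at the same position in both libraries. The start of *Neu4*, 14999 bp away, is the annotated start nearest to it. The peaks 3597 bp and 9797 bp upstream were low, with 25 and 18 reads and with 17 and 24 reads. The summits of the former lay 200 bp apart, and library 2 held 9 reads in the window of library 1. The latter lay between stretches with almost no reads in either library, which lower its local background. There was 0 shared peak within 2 kb of the start, where a peak 947 bp upstream was called in library 1 only, with 28 reads against 12 in the same window of library 2. The intron 1 sequence is shown as the main peak of the gene.
Pdcd1 intron 1 peak, chr1:94047350-94047550: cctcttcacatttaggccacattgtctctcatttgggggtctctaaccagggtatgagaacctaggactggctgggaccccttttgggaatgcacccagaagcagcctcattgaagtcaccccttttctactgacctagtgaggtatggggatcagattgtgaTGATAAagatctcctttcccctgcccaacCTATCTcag
Its 2 GATA matches began 63 and 92 bp after the summit.

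*Lag3*, an inhibitory receptor that binds MHC class II, lies at chr6:124904361-124911705 on the minus strand, with 8 exons. The high density of its locus was not that of the gene alone. The locus reaches 4240 bp into a block of reads over *Cd4*, the neighbouring coreceptor gene, at chr6:124879601-124888600, where the density was 28.6-fold and 35.0-fold over the mean. These 4240 bp held 53.7% and 59.7% of the reads of the locus, and 2 of its 5 shared peaks lay there, with 173 and 128 reads and with 161 and 137 reads. The names of the files hold a word that resembles a *Cd4*-driven Cre genotype, which the labels do not give, and added copies of *Cd4* sequence in the cells and dense Gata3 signal at this gene cannot be told apart here. Without these 4240 bp the *Lag3* locus had 3 shared peaks and 0.928 and 0.923 RPM per kb, below *Btla* and *Cd226* in both libraries.

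The *Lag3* peak nearest the gene itself lay in exon 1, 55 bp from the start and within the 5′ UTR, and was low (32 and 18 reads, 0.790 and 0.721 RPM, 41.7 percentile), with 0 GATA matches. A peak 3161 bp past the end of the gene was the tallest outside *Cd4*, with 74 and 42 reads (1.83 and 1.68 RPM, 4.38-fold and 3.87-fold, 85.9 percentile) and the same summit in both libraries. A peak 4945 bp upstream, inside the neighbouring gene *Ptms*, held 29 and 18 reads (39.6 percentile), but the summits lay 200 bp apart and library 2 held 8 reads in the window of library 1.

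*Havcr2*, which encodes TIM-3, lies at chr11:46454935-46481255 on the plus strand, with 7 exons, and had a peak at its start and another inside the gene. The peak 135 bp upstream of the start held 59 and 29 reads (1.46 and 1.16 RPM, 5.46-fold and 5.03-fold over the local density, 72.6 percentile). The peak in intron 4, 12115 bp from the start, was the taller in both libraries, with 95 and 48 reads (2.35 and 1.92 RPM, 8.05-fold and 6.06-fold, one-sided exact Poisson p = 5.58e-52 and p = 4.80e-22, 89.2 percentile). Library 1 alone called 6 further peaks in this locus, with 14 to 30 reads, and in the same windows library 2 held 3 to 12 reads. Both sequences are shown because they differ in where the GATA letters fall.
Havcr2 start peak, chr11:46454700-46454900: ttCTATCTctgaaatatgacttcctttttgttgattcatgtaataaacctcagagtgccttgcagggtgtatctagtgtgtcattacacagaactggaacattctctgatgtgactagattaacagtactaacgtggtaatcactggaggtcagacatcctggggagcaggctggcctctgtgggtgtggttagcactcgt
Havcr2 intron 4 peak, chr11:46466950-46467150: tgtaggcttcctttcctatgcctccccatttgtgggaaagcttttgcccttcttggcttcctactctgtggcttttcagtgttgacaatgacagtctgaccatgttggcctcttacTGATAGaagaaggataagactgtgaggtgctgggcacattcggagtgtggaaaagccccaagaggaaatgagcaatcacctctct
At the start the single match began 98 bp before the summit, and in intron 4 it began 16 bp after it.

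**Figure D3:**
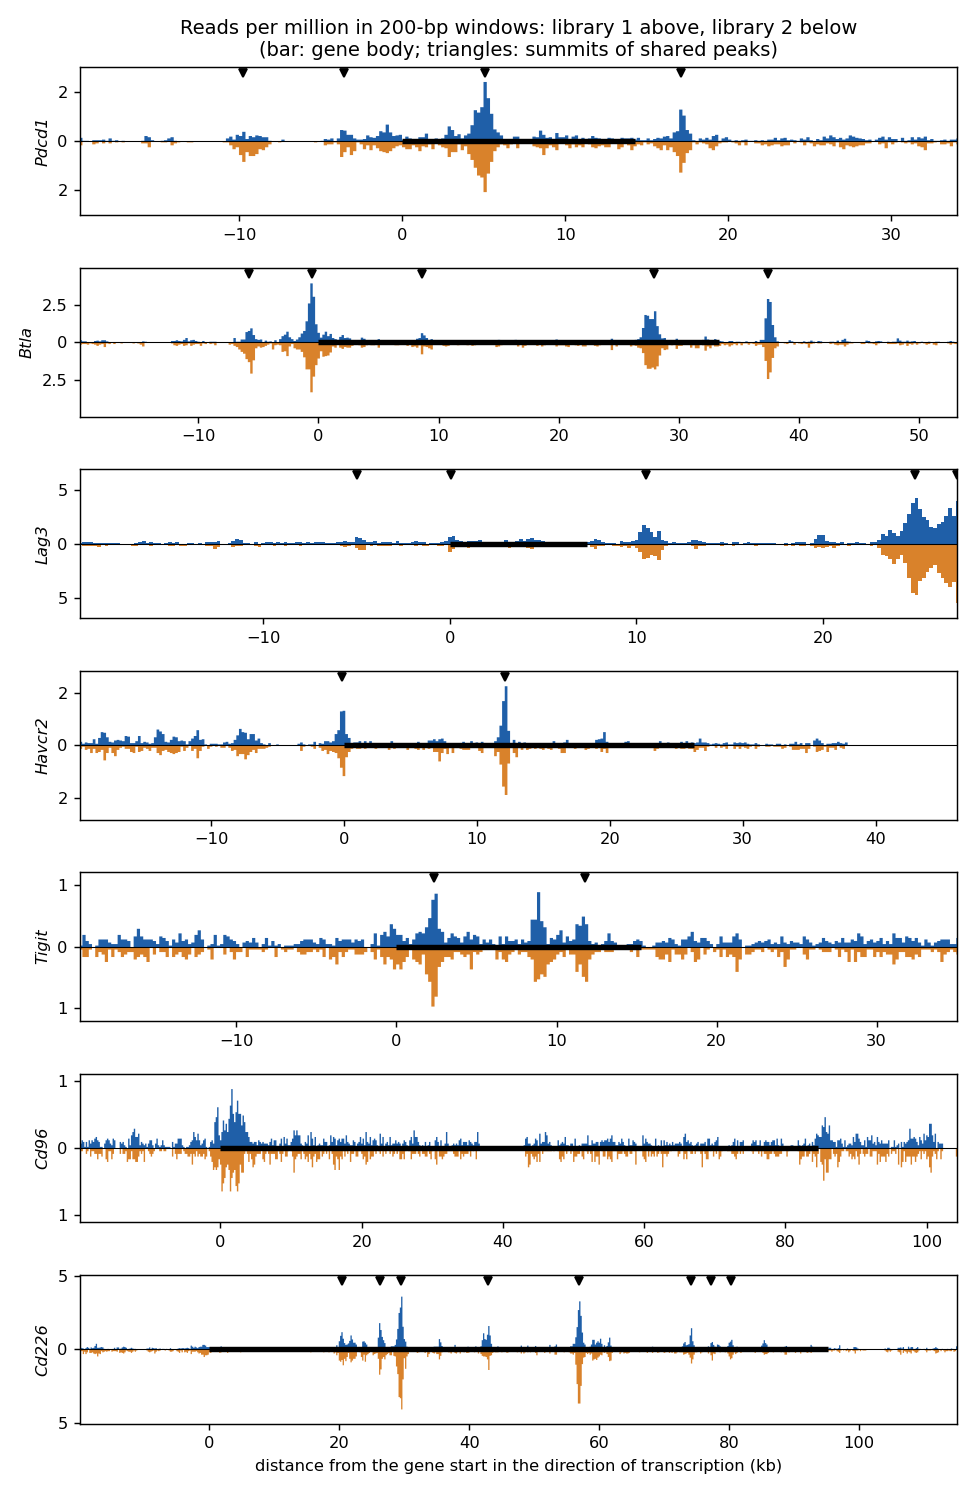
RPM in 200-bp windows across the 7 loci that could be read, library 1 upwards and library 2 downwards, against distance from the gene start in kb in the direction of transcription. The bar on the axis is the gene body and triangles mark the summits of the 26 shared peaks. The right edge of the Lag3 panel is the reads of Cd4, and the vertical scale differs between panels.

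*Tigit*, *Cd96* and *Cd226* encode receptors for shared nectin-type ligands, the first inhibitory and the last activating. They had 2, 0 and 8 shared peaks. *Tigit* lies at chr16:43648867-43664146 on the minus strand, with 4 exons. Its peak in intron 2, 2346 bp from the start, held 45 and 28 reads (1.11 and 1.12 RPM, 4.59-fold and 4.07-fold, 70.0 percentile) with the same summit in both libraries. Its peak in intron 3 was among the lowest of the 26, with 21 and 16 reads (13.9 percentile). A further peak in intron 3, 8846 bp from the start, was called in library 1 only, with 36 reads, and the same window of library 2 held 13 reads. The first 2 sequences are set side by side because the taller has 2 GATA matches and the lower has 0.
Tigit intron 2 peak, chr16:43661700-43661900: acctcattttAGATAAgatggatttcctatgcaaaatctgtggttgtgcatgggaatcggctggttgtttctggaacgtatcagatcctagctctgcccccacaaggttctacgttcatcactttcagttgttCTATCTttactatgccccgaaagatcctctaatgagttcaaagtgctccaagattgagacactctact
Tigit intron 3 peak, chr16:43652300-43652500: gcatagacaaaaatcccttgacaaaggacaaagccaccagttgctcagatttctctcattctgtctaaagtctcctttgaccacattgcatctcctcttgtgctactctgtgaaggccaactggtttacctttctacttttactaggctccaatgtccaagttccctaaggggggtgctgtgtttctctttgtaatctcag
The nearest match in the taller peak began 33 bp after the summit.

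*Cd96* lies at chr16:46035657-46120251 on the minus strand, with 15 exons, and was the only readable member with 0 shared peaks. Library 1 called 4 peaks in its locus and library 2 called 1, at different places. The tallest, in intron 1 at 1501 bp from the start, held 39 reads in library 1 and 11 in the same window of library 2. The reads near the start were spread over several kb. Within 500 bp of the start *Cd96* had 1.51 and 1.96 RPM, at the 91.9 and 95.7 percentile of all protein-coding genes. On the same measure *Btla* had 5.48 and 5.69 RPM, *Havcr2* 3.97 and 3.09, *Lag3* 2.12 and 1.56, *Tigit* 1.21 and 1.36, *Pdcd1* 0.864 and 1.24 and *Cd226* 0.790 and 0.922. The absence of a shared peak at *Cd96* was thus not an absence of reads, and is not shown to be an absence of binding at this depth.

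*Cd226* lies at chr18:89176967-89272229 on the plus strand, with 8 exons, and its body of 95263 bp is the longest of the 10. All 8 shared peaks lay in introns, and 0 lay within 2 kb of the gene start. The tallest, in intron 2 at 29533 bp from the start, held 147 and 101 reads (3.63 and 4.05 RPM, 5.50-fold and 4.88-fold, 98.4 percentile). The next, in intron 4 at 56933 bp, held 134 and 101 reads (3.31 and 4.05 RPM, 97.6 percentile). Peaks with 77 and 45 reads in intron 2 and with 66 and 34 reads in intron 4 followed, and the other 4 held 27 to 60 reads in library 1 and 19 to 27 in library 2. Of the 8 annotated transcript starts of *Cd226*, 6 had a shared peak within 2 kb. The same held for 3 of 3 starts of *Btla*, 2 of 2 of *Lag3* and 2 of 2 of *Havcr2*. Thus 4 of 10 members had such a start, against 17.2% of all protein-coding genes counted in the same way.

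The 26 shared peaks had a median height of 1.54 RPM in library 1 and 1.36 RPM in library 2, against 0.988 and 0.881 RPM over all shared peaks. They ranged from the 5.06 to the 99.4 percentile, with a median of 75.9, and 5 stood above the 95th percentile, 2 of them in *Cd4*. Their median width was 625 bp, against 600 bp over all shared peaks. The summits of both libraries were at the same position in 11 of 26 and within 100 bp in 22 of 26, and the latter was so for 78.8% of all shared peaks. Over the 200-bp windows of a locus, Pearson's r between the libraries was 0.976 at *Lag3* (236 windows), 0.944 at *Cd226* (676), 0.934 at *Btla* (366), 0.903 at *Pdcd1* (270), 0.881 at *Havcr2* (331), 0.746 at *Tigit* (275) and 0.628 at *Cd96* (622). Windows are not replicates, and these values are descriptions. The value of *Lag3* includes the high windows in *Cd4*.

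In height, 0 of the 26 peaks differed between the libraries (two-sided exact binomial test, adjusted over all shared peaks), against 1.63% of all shared peaks. At an unadjusted p under 0.05 the count was 2. One was the peak in *Cd4* that lies 19861 bp past the end of *Lag3*, with 161 and 137 reads (exact binomial p = 0.00684, adjusted p = 0.124). With the median ratio of the libraries as the scale its adjusted p was 0.00247, which turns the call. The other was the *Pdcd1* peak 9797 bp upstream, with 17 and 24 reads (exact binomial p = 0.0128, adjusted p = 0.163). This test compares 2 libraries, not conditions, and it does not compare the heights at each library's own summit.

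**Figure D4:**
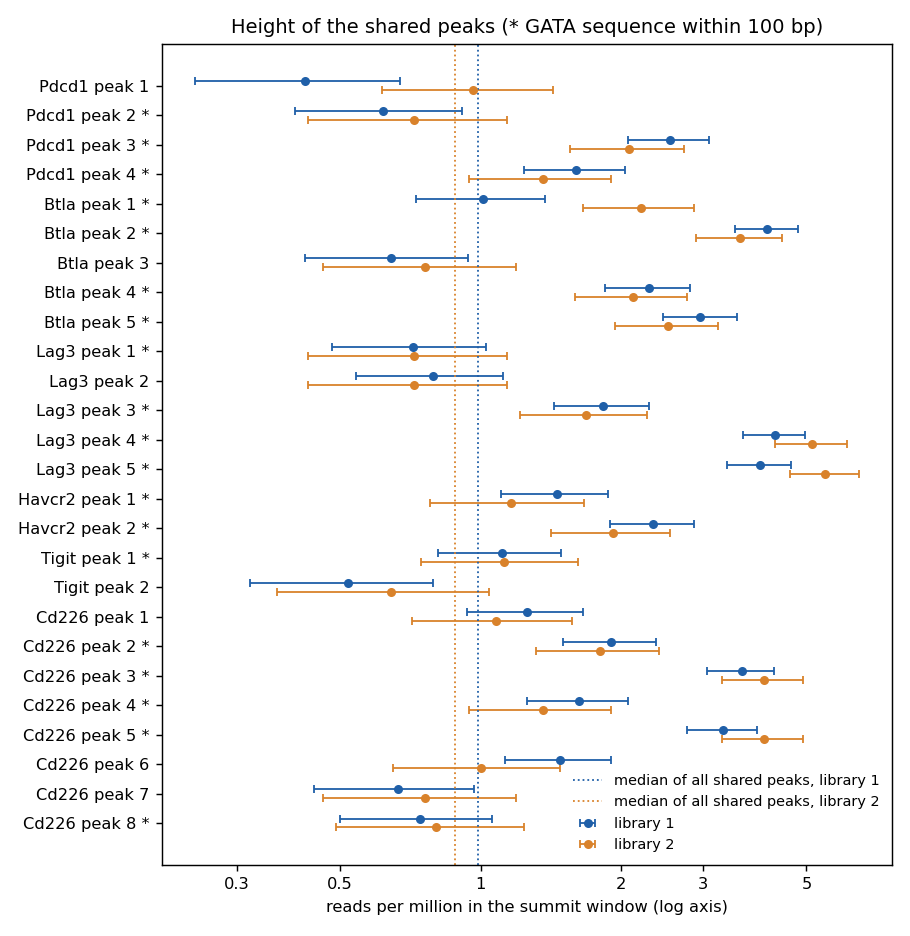
Height of the 26 shared peaks (RPM in the summit window of each library, log axis), numbered along each locus in the direction of transcription, with 95% exact Poisson intervals. Dotted lines are the medians of all shared peaks, 0.988 and 0.881 RPM, and a star marks a GATA match within 100 bp of the summit. The tallest peaks are those of Lag3 in Cd4, Btla peak 2 and Cd226 peaks 3 and 5.

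GATA letters lay within 100 bp of 19 of the 26 summits (73.1%), against 71.0% of all shared summits. In windows of the same length 1 kb to either side they were found in 14 of 52 (26.9%), against 33.4% for all shared peaks. The 19 peaks with GATA letters had a median of 1.90 RPM in library 1 and 1.92 RPM in library 2, and the 7 without had 0.667 and 0.761 RPM. At the library 2 summits the count was 20 of 26, with 4 of the 7 gaining at least 1 match and 3 of the 19 losing theirs, so the split depends on which summit is used. Among the 4 was the *Pdcd1* peak 9797 bp upstream, with 14 matches at its library 2 summit and 0 at its library 1 summit. The 7 were a *Pdcd1*, a *Btla*, a *Lag3* and a *Tigit* peak and 3 of *Cd226*. Other motifs were searched on both strands in the same windows. The AP-1 letters TGACTCA or TGAGTCA were found at 0 of 26 summits, against 12.3% of all shared summits. The RUNX letters TGTGGT were found at 4 of 26, against 17.2%, and the NFAT letters TGGAAA at 5 of 26, against 18.9%. A match is a description of the letters, and no match says only that they are not in this window.

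Ligands of these and of related receptors were read from a list of 12 genes (including *Cd200*, whose receptor is none of the 10 members), of which 10 had a shared peak in the locus, 6 in the gene body and 3 within 2 kb of the gene start. The 3 were *Cd86*, the ligand of CD28 and CTLA-4, with a peak 569 bp upstream (70 and 40 reads), *Cd274*, which encodes PD-L1, and *Pvr*, the ligand of TIGIT, CD96 and CD226, with a peak 60 bp from its start (35 and 21 reads). The tallest ligand peak lay in intron 4 of *Pdcd1lg2*, which encodes PD-L2, with 162 and 92 reads (98.6 percentile). *Cd274* and *Pdcd1lg2* are neighbours whose loci overlap, and each had 5 shared peaks. *Fgl1* and *Ceacam1* had 0.

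A list of 18 further receptors and signalling partners held 15 genes with a shared peak in the locus, 10 in the gene body and 7 near the start. Those near the start included *Cd244a*, *Cd200r1*, *Havcr1*, *Ptpn11*, *Pik3r1* and *Trat1*. A peak lay 379 bp upstream of *Trat1*, an adaptor of the T cell receptor complex, with 111 and 69 reads (95.6 percentile). *Pik3r1*, the regulatory subunit of PI3K that signals downstream of CD28, had 8 shared peaks, the tallest with 123 and 90 reads in intron 2. The tallest peak of the list lay 11886 bp upstream of *Ptpn6*, which encodes the phosphatase SHP-1, with 167 and 96 reads (98.9 percentile). These shares of both lists stand beside 54.8%, 29.4% and 11.7% of all protein-coding genes, and nothing is called particular to the lists.

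As a check of the label, the *Il4* and *Il13* loci of the TH2 cytokine cluster shared a peak with 220 and 138 reads (5.43 and 5.53 RPM), taller than all 26. The loci of *Il5*, *Gata3* and *Il1rl1* had 5, 4 and 5 shared peaks. *Ifng*, the TH1 cytokine gene, had 2 low ones, the taller with 18 and 17 reads. *Tbx21*, the TH1 transcription factor gene, had 4, the tallest with 71 and 43 reads (86.4 percentile). The tallest at *Gata3* held 108 and 45 reads (87.7 percentile), so by peak count and height *Tbx21* was close to *Gata3*. Over the D and J segments of the T cell receptor delta locus, which alpha-beta T cells delete, 7 and 4 reads were found, 0.0202 and 0.0187 of the mean density. Copies of this sequence elsewhere were not counted, and the *Ctla4* locus was nearly as low, at 0.0342 and 0.0286 of the mean. Whether a deletion or a lack of unique positions gave the low count was thus not tested.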

How the data were processed

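Gata3 ChIPmentation libraries of TH2 cells, 2 of the same condition, were analysed. According to the methods and the submitters' processing notes, single reads were mapped by the authors with Bowtie2 2.3.5.1 on GRCm38, and those without a unique position were removed. MACS2 2.1.2 is also listed, and no peak file was used here. The authors deposited 1 line per read, with start, end, strand and the aligner's mapping quality score (22 to 44). In each library 0 reads shared a 5′ end and strand, which limits how high a window can rise. These deposited reads were the only input, and their counts per window are not normalised for an input library.

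Read positions were moved 100 bp in the 3′ direction, and 200-bp windows were taken at steps of 50 bp. The background of a window was the mean of the library or of the surrounding 5 kb or 10 kb, whichever was highest, and significant windows within 100 bp were joined. The local means include the peak itself. A peak was given to a locus by its library 1 summit. Shared peaks were compared between libraries with a two-sided exact binomial test on the reads of the library 1 summit window, with Benjamini-Hochberg adjustment over all 23806. Exact copies of 50-base stretches were counted on both strands in GRCm38.p6. Sequences are RefSeq's GRCm38.p6 and genes are GENCODE M21, with chromosome lengths checked against the reads. The scripts were tested on simulated data.

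Named genes are the 10 members, every shared peak in their loci, genes that overlap such a peak, and from lists of ligands and of further receptors those with a shared peak near the start and the 5 with the tallest peaks, with TH cell genes for reference. *Neu4*, which names a nearest start, was added after its values were seen. The values of 1 gene of the lists and 1 sequence are not reported here. The members and lists were chosen with earlier results of these data known. Alternatives were 2 stricter thresholds, other window lengths, no shift, a mapping quality of at least 30, closer summits, thinning, each library alone, and other definitions of locus, start and motif window. The genes with at least 10% of the mean density, the start of the principal transcript and the total without the *Cd4* reads were chosen after seeing the data. Python 3.11.15, NumPy 2.4.6, SciPy 1.17.1, pandas 2.3.3, Numba 0.67.0 and Matplotlib 3.10.9 were used.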

Additional observations from a re-analysis of the deposited data

How the results depend on the processing

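The threshold changed the counts most. At a q of 1e-10 the loci held 9 shared peaks in 5 members, 4 members had one in the gene body and 1 (*Btla*) near the start, against 19.6%, 9.60% and 2.77% of all protein-coding genes. At 5-fold or more over the local density 3 peaks in 2 members were left, with 1 member in the gene body and 1 (*Havcr2*) near the start, against 24.4%, 11.4% and 2.67% of genes. With each library alone the loci held 28 to 47 peaks. In either library 7 members, *Cd96* now among them, had one in the locus and in the gene body, against 58.9% to 81.2% and 31.98% to 51.9% of genes. Near the start it was 3 to 6 members, against 13.1% to 28.0% of genes. With 50 kb either side the 10 loci held 40 shared peaks in 6 members, against 71.2% of genes with a shared peak. Within 1 kb of the start, 7.39% of genes and the same count of 3 members had a shared peak. With the median ratio of the libraries as the scale, 1 of the 26 peaks differed between them in the library 1 summit window. It lies in *Cd4*, 19861 bp past the end of *Lag3*, and 1.51% of all shared peaks differed. Of 88 alternative values of the totals and shares, 69 stayed within 1.5 times the main one, among them all those under 400-bp and 100-bp windows, no shift, a mapping quality of at least 30, summits within 100 bp and thinning. Peak counts of single loci were judged by the same 1.5 times rule, with a count of 0 unchanged only at 0. The density of a locus counted as moved where it shifted by more than the standard deviation of the 2 libraries. By these rules 33 further values of single loci moved and 86 did not. *Tigit* had 1 shared peak, not 2, under 100-bp windows and under thinning. Apart from the fewer peaks that a stricter rule keeps, the cause of these changes was not tested.

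No paired analysis was possible because both libraries belong to the same group. No input library was used, so a peak is a local excess of reads and no more. Thinning of library 1 to the reads of library 2 left 22 shared peaks in the loci. The order of *Lag3* depends on the reads of *Cd4*. *Cd28*, *Ctla4* and *Icos* cannot be read from these files.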
